A study of Homo sapiens with 12 samples.

Results

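The H/ACA box small nucleolar RNAs (snoRNAs, gene symbols starting with SNORA) and the small Cajal body RNAs (scaRNAs, symbols starting with SCARNA) were taken as all rows with such a symbol in the gene tables of 12 precision run-on sequencing (PRO-seq) libraries. There were 211 such genes, 182 SNORA and 29 SCARNA, among 28278 rows in 8 of the tables, and 206 of them among 25056 rows in the other 4. PRO-seq sequences RNA that engaged polymerases extend in isolated nuclei, and the cells were Mia PaCa-2, a pancreatic carcinoma line. The 6 groups were a line with Dox-inducible MED30, a line with Dox-inducible MYC-3xHA, and a line with both transgenes integrated, each without doxycycline (Dox, control) and with 0.5 μg/ml Dox (overexpression), given for 1 day by the labels and 2 days by the text of the results, with 2 libraries per group. All groups shared the parental line and the uninduced lines carried the same transgenes, whether a line was 1 clone is not given in the sources used here, and nothing said that the replicates came from separate cultures, so that p-values measure the spread between these libraries alone.

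H/ACA snoRNAs guide the conversion of uridine to pseudouridine in ribosomal RNA, and scaRNAs guide modification of the spliceosomal small nuclear RNAs in Cajal bodies. Most human members are not transcribed on their own. They lie within introns of host genes and are cut out of the spliced intron, bound by the core proteins DKC1, NHP2, NOP10 and GAR1, and trimmed to their mature ends, where the ACA box stands a few bases before the 3′ end. In PRO-seq a read over such a gene can come from the polymerase that transcribes the host, so a value for the small gene is not by itself a measure of its own transcription. Symbols do not separate the classes cleanly, since SCARNA2, SCARNA7 and SCARNA9 are box C/D scaRNAs and several others join both kinds of domain.

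The genes on which the results turn are shown with the ACA box that a script found 3 bases before the annotated end in capitals. The coordinates are those of the RefSeq table of GRCh38.p14, and the sequences were read 5′ to 3′ from hg38. SNORA73A (chr1:28507365-28507571, plus strand) and SNORA73B (chr1:28508558-28508762, plus strand), which act in the processing of 18S ribosomal RNA, were among the 3 highest members of the MED30 tables. SNORA57 (chr11:62665422-62665570, plus strand) was called lower with Dox there, as was SNORA29 (chr6:159785594-159785733, minus strand), in which no ACA stood at that position. SNORA7B (chr3:129397210-129397348, minus strand) was called higher. SNORA50C (chr17:64146339-64146471, plus strand) and SNORA80C (chr16:30419625-30419759, minus strand) were among the few with values in both kinds of table.
SNORA73A: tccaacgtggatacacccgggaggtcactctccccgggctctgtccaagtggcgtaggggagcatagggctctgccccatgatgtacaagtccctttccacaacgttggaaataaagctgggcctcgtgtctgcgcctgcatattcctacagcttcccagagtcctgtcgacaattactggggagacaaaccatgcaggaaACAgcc
SNORA73B: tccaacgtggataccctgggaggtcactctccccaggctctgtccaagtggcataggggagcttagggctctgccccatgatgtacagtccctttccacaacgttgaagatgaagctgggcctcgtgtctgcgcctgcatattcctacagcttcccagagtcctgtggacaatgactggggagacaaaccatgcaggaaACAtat
SNORA57: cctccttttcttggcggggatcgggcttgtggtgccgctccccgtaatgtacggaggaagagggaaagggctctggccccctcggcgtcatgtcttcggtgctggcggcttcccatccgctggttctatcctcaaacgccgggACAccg
SNORA29: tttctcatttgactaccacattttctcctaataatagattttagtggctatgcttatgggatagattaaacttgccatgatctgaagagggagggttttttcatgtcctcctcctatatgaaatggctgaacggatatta
SNORA7B: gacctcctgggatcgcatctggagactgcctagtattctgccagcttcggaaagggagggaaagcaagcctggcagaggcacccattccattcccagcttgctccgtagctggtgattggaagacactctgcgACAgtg
SNORA50C: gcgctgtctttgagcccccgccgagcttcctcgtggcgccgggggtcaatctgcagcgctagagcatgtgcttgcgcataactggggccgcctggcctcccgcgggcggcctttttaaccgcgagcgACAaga
SNORA80C: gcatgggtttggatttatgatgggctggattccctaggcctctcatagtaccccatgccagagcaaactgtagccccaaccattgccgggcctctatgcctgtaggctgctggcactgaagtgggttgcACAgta

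The box was shared well beyond the genes shown. ACA stood 3 bases before the annotated end in 126 of 149 SNORA genes with a strand in the annotation (84.6%) and in 16 of 24 SCARNA genes (66.7%). Among 280 genes of the C/D box class (SNORD), which lack this box, the letters stood there in 4 (1.43%). The members were short, from 86 to 421 bases with a median of 135. Many were near copies of each other. In 46 pairs, which involved 61 members, at least 90% of aligned bases were identical, and in 4 of these pairs all were. Reads that match both copies of a pair equally cannot be assigned with confidence, and their number is not known here.

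Before the results, 3 properties of the libraries have to be given. In the libraries labelled MYC, MED30 counts rose from 814 and 733 in the controls to 20435 and 19642 with Dox, while MYC counts were 9840 and 8839 against 6741 and 8274, which goes against the label. The log2 ratio between replicates over 10238 genes correlated between the MED30 tables and the libraries labelled MYC (r = 0.909 for controls and 0.926 for overexpression libraries), against -0.0839 and -0.242 between the MED30 and MYC&MED30 tables, so the MED30 and MYC comparisons cannot be taken as independent. In the MYC&MED30 line both transgenes rose, MED30 from 1368 and 79 to 31646 and 42609 counts and MYC from 7130 and 408 to 14079 and 17389. Its second control was shallow, with 1257499 counts, while the other 7 raw tables held 20616713 to 29881914. The MED30 tables summed to 6379143 to 6519353, and their depth is unknown. Of the cell markers, the keratin genes KRT8 and KRT18 and VIM were transcribed in every library, PTPRC, CD3E and ALB had at most 46 counts, and CDKN2A, known to be deleted in this line, had 0 to 11 counts.

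In the raw count tables nearly all of these genes were listed at 0. Of 211, 199 had 0 counts in all 8 libraries and 12 had at least 1 count somewhere. Only 5 had signal, defined as at least 10 counts in at least 2 libraries, namely SCARNA2, SNORA50C, SNORA80C, SNORA109 and SNORA10B. Together the members took 0.00259% to 0.00685% of a library's counts, and SCARNA2 and SNORA50C held 93.1% of all member counts. A count of 0 allows up to 3 counts, which is 0.1 to 0.146 CPM (counts scaled to a common library total) in 7 libraries and 2.39 CPM in the shallow one. That limit covers counting error for reads assigned to the gene and says nothing of reads that the counting left unassigned.

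The MED30 tables held values for most of the same genes. Between 158 and 161 of 206 were above 0 in each library, 148 were above 0 in all 4 libraries, and 36 were at 0 throughout. With the same definition of signal, 87 passed (71 SNORA and 16 SCARNA), and a further 83 had some value but did not pass. The members made up 0.0672% to 0.0826% of the summed values. Counts per library were thus split by kind of table, with no overlap, from 4 to 11 members above 0 in the raw tables.

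**Figure D1:**
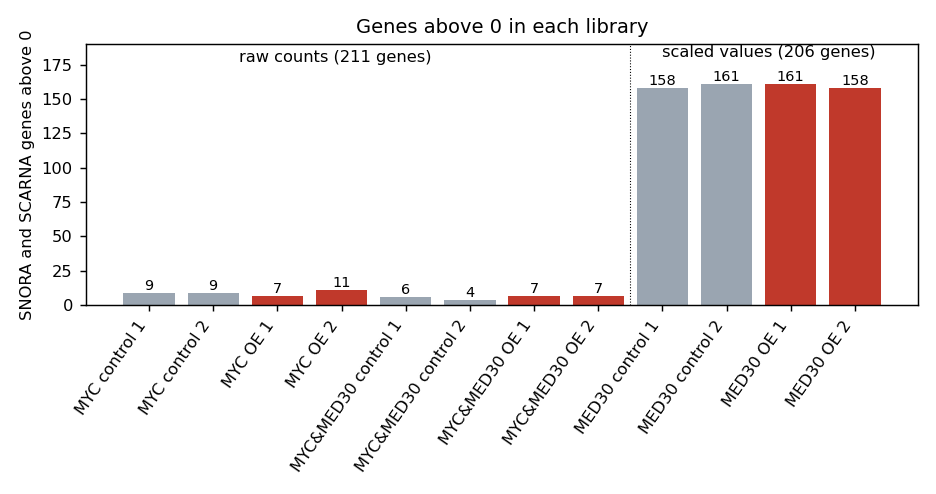
Number of SNORA and SCARNA genes above 0 in each library (bars, y axis; grey for control, red for overexpression with Dox). The 8 raw count tables hold 4 to 11 genes above 0, and the 4 MED30 tables hold 158 to 161.

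Matched gene by gene, 165 of the 206 genes in both kinds of table were at 0 in every raw table and above 0 in the MED30 tables. The reverse held for 7, another 29 were at 0 in both and 5 were above 0 in both. The share at 0 was 94.2% in the raw tables and 17.5% in the MED30 tables. C/D box SNORD genes, the other large class of intron-encoded small RNAs, were split alike, at 94.4% and 15.5% of 233 genes. Genes of the snoRNA host family SNHG were not, at 8.33% in both kinds of table (24 genes), and over all 24768 shared rows the shares were 17.7% and 18.5%. Of the 2030 other rows of at most 500 bases, 87.3% and 48.4% were at 0.

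Position within another gene went with the 0 counts. By the GENCODE annotation, 160 of the 211 genes lie wholly inside a gene of the same strand, and 156 of these (97.5%) were at 0 in all raw tables. Of the 13 that do not, 7 were at 0, and of 38 without a strand in the annotation 36 were. With RefSeq spans, 157 of 158 genes inside a same-strand gene (99.4%) and 6 of 15 outside one (40%) were at 0. Of 155 genes inside a same-strand gene by GENCODE, 17 (11%) were at 0 in the MED30 tables. Rows of other genes were split the same way, more so with RefSeq spans than with GENCODE. By GENCODE, 68.8% of 2374 nested rows were at 0 by raw count and 36.7% by MED30 value, against 9.58% and 16% of 20347 others. By RefSeq the shares were 90.1% and 35.3% of 1730 nested rows, against 9.65% and 16.8% of 20991 others. By default featureCounts leaves out reads that overlap more than 1 gene on the counted strand. The setting used for these files is not given in the sources used here, and its part in the 0 counts was not tested.

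Most hosts had counts in the raw tables. A host with a row in both kinds of table was found for 151 members (116 hosts), with 91 members inside introns and 60 overlapping an annotated exon of some transcript. For 138 members at 0 in all raw tables the host averaged at least 10 counts. EIF4A2, a translation initiation factor gene that holds SNORA4, SNORA63, SNORA63B and SNORA81, had 11393, 10457, 11100 and 12790 counts in the libraries labelled MYC, and all 4 of its snoRNAs were at 0. In all raw tables, 5 hosts of members in both kinds of table were at 0, among them CSKMT (SNORA57) and the translation initiation factor gene EIF4A1 (SNORA48 and SNORA67), whose mean MED30 values were 1061 and 2457. Choice of the row also differed between the tables where hosts overlap. Around SNORA73A and SNORA73B, the raw tables listed SNHG3 at 0 in every library and RCC1 at 9744 to 15155 counts in the libraries labelled MYC. In the MED30 tables SNHG3 stood at 5125, 5300, 4351 and 4256 and RCC1 at 718, 722, 520 and 576.

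Among the 12 genes with raw counts, SCARNA2, which guides 2′-O-methylation of U2 small nuclear RNA and has its own promoter, and SNORA50C stood far above the rest. Per kb, SNORA50C was the higher, with a mean of 123 CPM per kb against 47.8 for SCARNA2. SCARNA2 had 527 and 547 counts in the controls labelled MYC and 558 and 1305 with Dox. In the MYC&MED30 line it had 351 and 19 counts in the controls, the second being the shallow library, and 264 and 314 with Dox. The MED30 tables listed 132 and 152 without Dox and 150 and 302 with Dox. The second overexpression library thus stood alone above the others there and in the libraries labelled MYC, and these sets cannot be taken as independent.

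SNORA50C, which overlaps an exon of SNHG25, had 608 and 500 counts in the controls labelled MYC and 479 and 644 with Dox, so the groups overlapped in counts, while as TMM-scaled CPM (23.2 ± 1.93 and 19.7 ± 0.876, SD, n = 2) both controls lay above both Dox libraries. In MYC&MED30 the counts were 335 and 13 against 254 and 329, and the MED30 values were 128 and 119 against 97 and 114. SNORA80C, which lies inside no same-strand gene, had 22 and 17 against 31 and 43 counts in the libraries labelled MYC. It had 46 and 2 against 49 and 56 in MYC&MED30, and values of 4 and 3 against 6 and 7 in the MED30 tables. Over 10796 rows with at least 200 counts the MED30 value was a median of 0.27 times the mean count in the libraries labelled MYC (0.213 to 0.298 from the 10th to the 90th percentile). For SCARNA2 this ratio was 0.251 and for SNORA50C 0.205, just below that range. SNORA80C is too low for the ratio to be read.

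A few genes went the other way, with counts in the raw tables and 0 in the MED30 tables. SNORA109, on chromosome X, had 36, 25, 25 and 18 counts in the libraries labelled MYC and 2, 0, 1 and 0 in MYC&MED30, and was listed at 0 in the MED30 tables. The libraries labelled MYC were thus above the more deeply sequenced MYC&MED30 libraries. The shallow MYC&MED30 control cannot be placed, since 0 counts there allow up to 2.39 CPM. The means under the MYC label were 1.275 CPM in the controls and 0.783 CPM with Dox. No comparison of the design tested this difference between lines. SNORA10B had 15, 7, 15 and 18 counts in the libraries labelled MYC and 8, 1, 4 and 3 in MYC&MED30. It is 98.5% identical to SNORA10, which lies within the ribosomal protein gene RPS2. SNORA10 was at 0 in the raw tables and at 10, 10, 12 and 11 in the MED30 tables. SNORA105C had 3 to 6 counts where it was above 0 and none in the MED30 tables, while its near copies SNORA105A and SNORA105B (98.3%), themselves 100% identical, both had 6, 7, 5 and 1 there. SNORA70H and SNORA50D, which stayed below 10 counts in every raw table, had MED30 values of at most 1.

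The levels of SCARNA2 and SNORA50C also differed between lines. As TMM-scaled CPM, SCARNA2 was 22.6 ± 1.84 (SD, n = 2) in the controls labelled MYC and 13.9 ± 0.156 in the MYC&MED30 controls, and SNORA50C was 23.2 ± 1.93 and 11.3 ± 2.52. SNORA80C was lower in the former, at 0.817 ± 0.104 and 1.64 ± 0.234. In these means the 3 genes did not share a direction between the lines. Each MYC&MED30 mean takes in the shallow control, where SCARNA2 had 19 counts and the others fewer. A small SD there is therefore no sign of precision. These differences between lines were not tested.

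**Figure D2:**
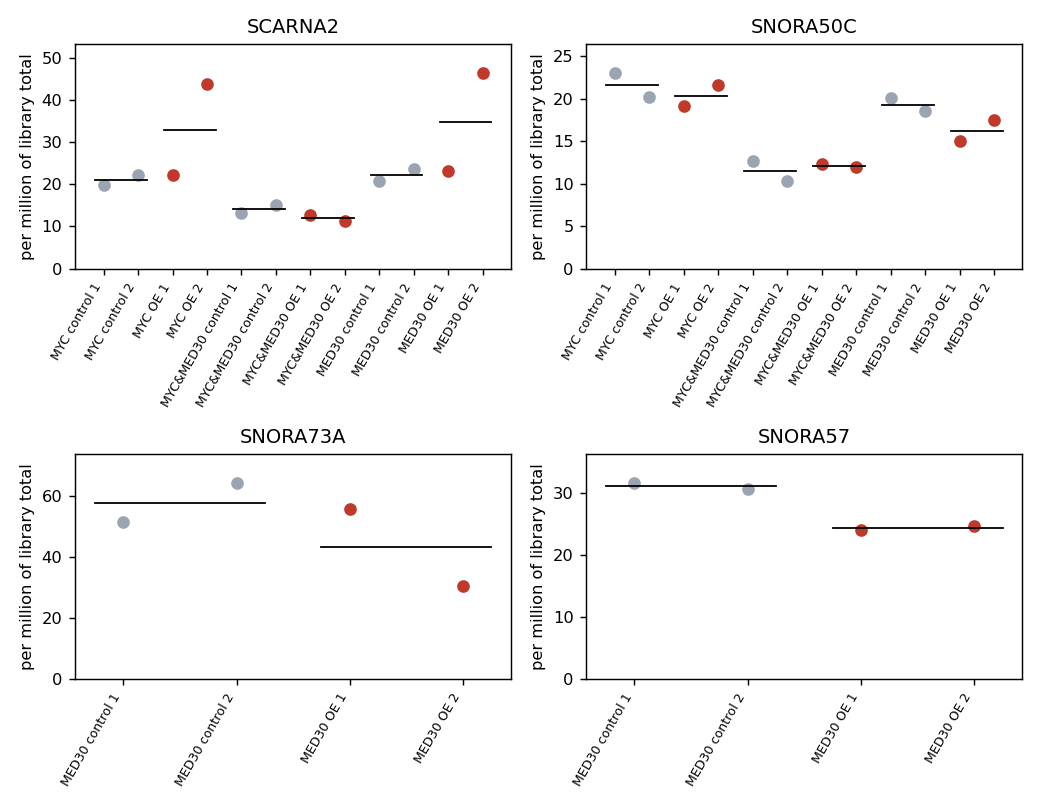
Level as CPM or, for the MED30 tables, as the value scaled to the same total (y axis, from 0) of SCARNA2 and SNORA50C in all 12 libraries and of SNORA73A and SNORA57, at 0 in all raw tables, in the 4 MED30 tables. Points are libraries (grey control, red Dox), black lines are group means, and OE marks overexpression. SCARNA2 is high in the second overexpression library of the MYC and MED30 labels, and the SNORA57 groups do not overlap.

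In the MED30 tables levels can be set side by side per kilobase. Members with signal had a median value of 244 per kb, from 41.3 to 1569, and the 8 highest members by value held 35.3% of the summed values. SNORA73A led with values of 327, 412, 361 and 199 and a mean of 1569 per kb. SNORA81 (EIF4A2), at 245, 302, 326 and 173, reached 1477 per kb. SNORA73B stood at 242, 332, 282 and 177 and 1260 per kb, close to SNORA16A in SNHG12, whose 102, 265, 175 and 128 gave 1250 per kb. SNORA57, in CSKMT, gave 1200 per kb and SNORA50C 861. Per kb, the ranges of the leading 5 overlapped from each to the next, so their order is not settled, while SNORA57 lay above SNORA50C in every library.

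Among the scaRNAs of the MED30 tables, SCARNA7 (KPNA4), a box C/D scaRNA, had values of 135, 185, 173 and 212. SCARNA10 (NCAPD2), a guide for U5 small nuclear RNA, had 72, 104, 106 and 42. Before scaling its replicates with Dox stood on either side of both controls. After scaling its groups overlapped, at 91.7 ± 23.1 without Dox and 71.4 ± 44.8 with Dox (SD, n = 2). SCARNA13 (SNHG10) had 22, 37, 30 and 26. SCARNA5 and SCARNA6 share the host ATG16L1, a gene of autophagy, and had 17, 34, 31 and 20 against 14, 19, 17 and 12. In both of these the second control and the first overexpression library were the highest pair. None of the 29 SCARNA genes was at 0 throughout the MED30 tables, against 20.3% of 177 SNORA genes. SNORA74A, in MATR3, had 60, 74, 64 and 55.

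Members with signal were mostly higher per kb than their hosts. The filter for signal favours this, since a short gene reaches a value of 10 only at a high level per kb. Members without signal lay on both sides of their hosts and are left out here. Of 80 members with signal and a host with a value, 66 were above the host per kb of gene span, 52 by at least 2-fold and 15 by at least 10-fold. The median ratio was 3.56, from 0.512 for SNORA63B to 82.5 for SNORA73A. The ratio depends on the length and the host taken: per kb of host exons the median was 1.08, and SNORA73A was 1.62 times SNHG3 where it was 82.5 times RCC1. By class of host, the median ratio was 3 for 17 members in ribosomal protein genes, 2.96 for 13 in SNHG genes and 4.42 for 50 in other genes. These classes follow the longest host, so SNORA73A and SNORA73B (RCC1), SNORA74A (MATR3) and SCARNA16 (SEC14L1) stand among the other genes although SNHG3, SNHG4 and SNHG20 hold them too, against which their ratios were 1.62, 1.30, 5.10 and 8.01 instead of 82.5, 66.3, 8.71 and 16.9. As a description over the 80 pairs, which share libraries and in part hosts (54 hosts), log2 levels per kb of member and host correlated at r = 0.453 (Spearman 0.421).

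**Figure D3:**
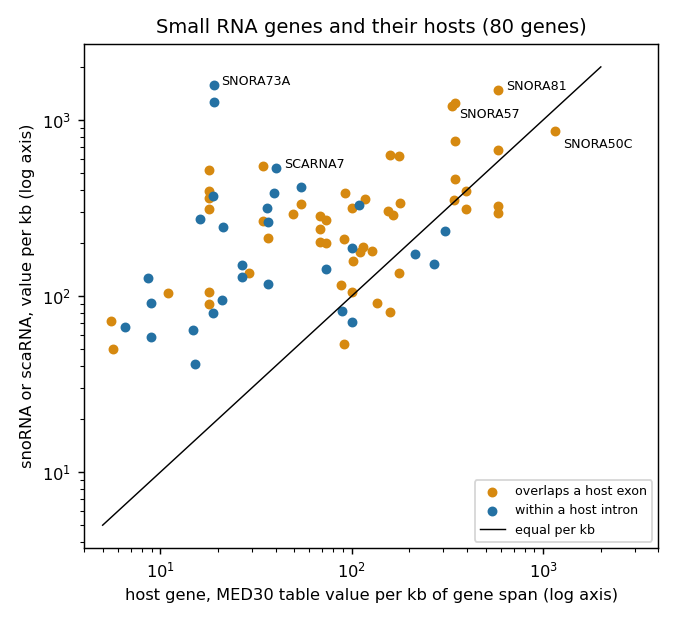
Value per kb of each snoRNA or scaRNA (y axis, log scale) against that of its host gene per kb of gene span (x axis, log scale) in the MED30 tables, means of 4 libraries, for 80 members with signal. Orange points overlap an exon of some host transcript, blue points lie in introns, and the line marks equal values. Of the points, 66 lie above the line.

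Members of the same host differed from each other. In EIF4A2 the 4 snoRNAs ran from 298 (SNORA63B) to 1477 per kb (SNORA81), a 4.96-fold range, with the host at 582 per kb. In TAF1D, a gene of the RNA polymerase I machinery, 6 snoRNAs (SNORA1, SNORA8, SNORA18, SNORA25, SNORA32 and SNORA40) ran from 90.4 to 517 per kb. In SNHG12 the range was 462 to 1250 and in SNHG17, which holds the SNORA71 genes, 45.3 to 270. In KANSL2 SNORA2C stood at 369 per kb and SNORA2B at 18.2, near the host's 18.8. SNORA2B, with values of 3, 3, 1 and 3, did not pass as signal, nor did SNORA71C, the lowest in SNHG17. Their levels per kb are uncertain. Members of the same host share a source transcript, so they are not independent.

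The spread of the members between replicates was compared with that of other genes of like level. Among members with a mean of at least 10, the median absolute log2 ratio between MED30 controls was 0.243 (82 members), against 0.131 for 4702 other rows of like level, and 60 of the 82 were higher in the second control. Between the MED30 overexpression libraries it was 0.215 (78 members) against 0.213. Among the few members with a mean of at least 100, it was 0.286 (9 members) against 0.0689 in the controls and 0.56 (8 members) against 0.147 with Dox, so at high values the members were the more variable in both groups. Relative to each gene's mean, the median member deviated by 0.206 in control 2 (68 of 87 above the mean) and by -0.143 in overexpression 2 (25 of 87), on the log2 scale. RN7SK, the 7SK small nuclear RNA that restrains transcription elongation, moved the same way and further, at 767, 1333, 1283 and 651, while the median SNORD gene deviated by 0.00788 and 0.129. Its part in the members' values was not tested.

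With Dox in the libraries labelled MYC, 1 of the 5 testable members was called by edgeR's quasi-likelihood test at an adjusted p under 0.05, against 13% of all rows tested (5.32% higher and 7.71% lower with Dox). That gene was SCARNA2, higher by 0.50 on the log2 scale (SE 0.16, adjusted p = 0.0416). The groups overlapped after scaling, at 22.6 ± 1.84 and 31.7 ± 13.4 CPM (SD, n = 2), and the value rested on MYC overexpression 2, without which the log2 change was -0.00151 (edgeR adjusted p 0.997). It was also lost without MYC control 1 (adjusted p 0.189). SNORA80C gave 0.66 (SE 0.39, adjusted p 0.291), SNORA50C -0.24 (SE 0.12, adjusted p 0.233), SNORA10B 0.34 and SNORA109 -0.73, none of which passed.

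In the MYC&MED30 line edgeR called 0 of the 5, and none had an unadjusted p under 0.05, against 6.74% of all rows called (3.65% higher and 3.09% lower). DESeq2 called 0 of the 2 members to which it gave an adjusted p, against 6.61% of all such rows. SCARNA2 gave -0.23 (SE 0.21, adjusted p 0.627), SNORA50C -0.10 (SE 0.16, adjusted p 0.809) and SNORA80C 0.28 (SE 0.40, adjusted p 0.777). For the difference between the responses of the 2 lines edgeR likewise called 0 of the 5, against 1.07% of all rows called (0.714% higher and 0.357% lower in MYC&MED30 than in MYC). The unadjusted p was under 0.05 for SCARNA2 only, at -0.72 (SE 0.27, adjusted p 0.224). Here DESeq2 called 0 of 2 members, against 1.52% of all rows to which it gave an adjusted p. Without MYC overexpression 1, where the MYC arm with Dox is the high library alone, SCARNA2 was called in this difference at -1.09 (edgeR adjusted p 0.000121).

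In the MED30 tables, tested with limma on log2 of the scaled value plus 1, 3 of 87 members were called (3.45%), against 16% of all 14780 rows tested (7.37% higher and 8.63% lower with Dox). SNORA57 fell, with values of 201 and 197 in the controls and 156 and 161 with Dox, and the groups did not overlap. Its log2 change was -0.45 (SE 0.10, limma adjusted p = 0.0145). Its host CSKMT, a methyltransferase gene whose exon it overlaps, also fell, from 1125 and 1133 to 936 and 1049 (log2 change -0.31, limma adjusted p 0.0157, or 0.2 and 0.212 without MED30 control 1 or 2). Over the alternatives the adjusted p of SNORA57 ran from 2.13e-05 to 0.2, being above the threshold without MED30 control 1 (0.2) or control 2 (0.154) and with no filter (0.06).

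SNORA29 fell from 10 and 10 to 4 and 6 (log2 change -1.0, SE 0.30, limma adjusted p = 0.04998). It passed the filter on low values only because both controls reached 10, while neither Dox library did. The filter thus favoured a fall, and the call cannot be taken as support for a response of SNORA29. Its host TCP1, a subunit gene of the chaperonin that folds actin and tubulin, fell from 1100 and 1153 to 905 and 925 (-0.42, limma adjusted p 0.00286, or 0.076 without MED30 control 2). By edgeR, TCP1 also fell under the MYC label (-0.42, adjusted p 0.00108, or 0.103 without MYC control 2) and in MYC&MED30 (-0.31, adjusted p 0.0407, lost at 0.0523 to 0.281 without any 1 library of that line). The falls under the MYC label and in the MED30 tables cannot be taken as independent. SNORA20, also in TCP1, was at 24 and 28 against 26 and 33 in the MED30 tables (0.05, limma adjusted p 0.886). The call of SNORA29 was lost in most of the alternatives that tested it, with adjusted p from 0.00568 to 0.14.

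SNORA7B rose from 7 and 7 to 15 and 17 (log2 change 0.97, SE 0.25, limma adjusted p = 0.03). It is 98.6% identical to SNORA7A, in the ribosomal protein gene RPL32, at 24 and 20 against 30 and 26 (0.22, adjusted p 0.5), so the division of reads between them is uncertain. RPL32 itself fell (-0.33, limma adjusted p 0.0111, or 0.155 and 0.181 without MED30 control 1 or 2). The call was lost without MED30 control 1 (adjusted p 0.107) or control 2 (0.126), and without either overexpression library the gene did not pass the filter on low values. SNORA7B passed that filter only because both Dox libraries reached its threshold, while neither control did. The filter thus favoured a rise, and the call cannot be taken as support for a response of SNORA7B. The change was also measured at values near that filter, where 1 unit is a large step.

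Over all 87 members, the 3 called ones included, log2 changes were negative for 63 and positive for 24, with a median of -0.15 against 0.01 over all rows, of which 47.4% were negative. The median member deviated from its mean by -0.01 in control 1 and 0.02 in overexpression 1, against 0.21 in control 2 and -0.14 in overexpression 2, the libraries in which RN7SK was highest and lowest, and the part of this in the changes was not tested. After scaling, both libraries of one group lay above both of the other for 27 members, while this held for 61% of all rows tested. Members that were not called included SNORA44 at 66, 78, 60 and 40 (-0.66, limma adjusted p 0.0605), SNORA73A (-0.57, adjusted p 0.131), SNORA73B (-0.46, adjusted p 0.17) and SNORA50C (-0.35, adjusted p 0.0849). SCARNA2 gave 0.46 (adjusted p 0.232). The count of calls depended on single libraries, as did that over all rows. Without MED30 control 2, 0 of 81 members were called against 5.18% of all rows, and without control 1, 5 of 85 against 6.31%. Without overexpression 2 it was 4 of 85 against 31.5%, and without overexpression 1 it was 27 of 83 (6 higher, 21 lower) against 46.5%.

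**Figure D4:**
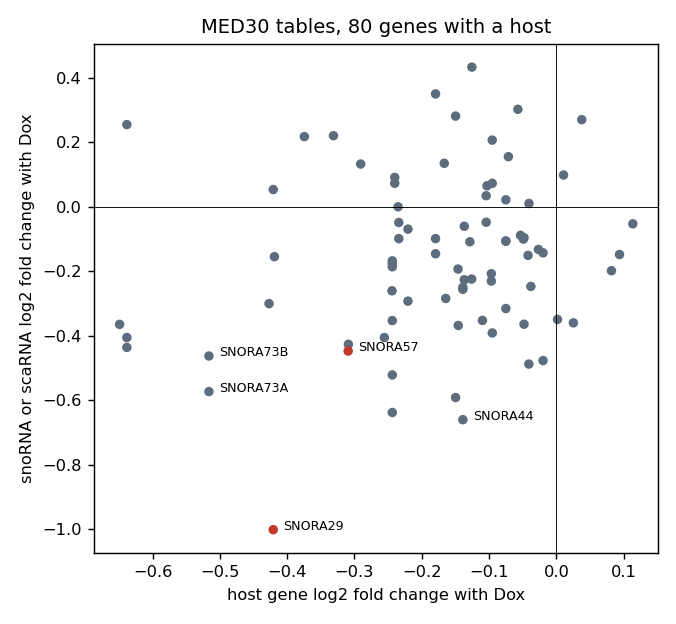
Log2 fold change with Dox of each snoRNA or scaRNA (y axis) against that of its host (x axis) in the MED30 tables, 80 members with a host. Red points are the called members SNORA57 and SNORA29, and 56 of the pairs have the same sign.

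Changes of members and hosts were only loosely related. Over 80 pairs from 54 hosts, 56 had the same sign and r was 0.2 (Spearman 0.185), given as a description because the pairs share libraries and hosts. Of the hosts themselves, 4 were called higher and 20 lower of 109 tested in the libraries labelled MYC, 2 and 5 of 109 in MYC&MED30, and 4 and 20 of 105 in the MED30 tables. Over all rows 5.32% and 7.71%, 3.65% and 3.09%, and 7.37% and 8.63% were called higher and lower in these comparisons. Those of the MYC label and the MED30 tables cannot be taken as independent. For RCC1 the row is also not alike between the kinds of table, with SNHG3 at 0 in the raw tables and at 4256 to 5300 in the MED30 tables. Which reads each RCC1 row holds was not tested. RCC1, a regulator of the Ran GTPase, fell under the MYC label (-0.56, edgeR adjusted p 0.000186) and in the MED30 tables (-0.52, limma adjusted p 0.00188), in both with any 1 library left out, and had a log2 change of 0.07 in MYC&MED30 (edgeR adjusted p 0.786). SNHG3, which holds SNORA73A and SNORA73B as well, fell by 0.40 in the MED30 tables (limma adjusted p 0.00252, or 0.0505 and 0.0965 without MED30 control 1 or 2). TAF1D fell under the MYC label (-0.33, edgeR adjusted p 0.0191) and in the MED30 values (-0.24, limma adjusted p 0.0344), in the former not without MYC control 1, control 2 or overexpression 2 (0.181 to 0.259) and in the latter not without either control (0.341 to 0.416).

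The proteins that assemble and carry these RNAs were taken as a list of 16 genes, with TERC, the telomerase RNA that shares the H/ACA fold. Under the MYC label none of the 16 was called higher and 2 were called lower by edgeR: DKC1, the pseudouridine synthase, from 1633 and 1637 to 1346 and 1433 counts (-0.48, adjusted p 0.00101, or 0.0722 without MYC control 2), and NOLC1, a nucleolar and Cajal body chaperone of these particles (-0.28, adjusted p 0.0293, lost at 0.0944 to 0.368 without MYC control 1, control 2 or overexpression 2). The same 2 fell in the MED30 tables among 14 tested (DKC1 -0.37, limma adjusted p 0.0195, and NOLC1 -0.22, adjusted p 0.0416), neither of them without MED30 control 1 (0.0582 and 0.446) or control 2 (0.303 and 0.449). Over all rows 13% and 16% were called in these comparisons, so 2 of 16 and of 14 are near the shares of all rows. The 2 comparisons cannot be taken as independent. In MYC&MED30 none of the 16 was called, against 6.74% of all rows, DKC1 having a log2 change of -0.17 (edgeR adjusted p 0.412), and the difference between the lines was not called for it (adjusted p 0.375). The median of the list was -0.01, -0.02 and 0.04 in the MYC, MYC&MED30 and MED30 comparisons. PARN, a deadenylase that trims the 3′ ends of these RNAs, was listed at 0, 1, 1 and 1 in the MED30 tables and had 3649 to 4712 counts in the libraries labelled MYC, so it could not be tested in the former.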

How the data were processed

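PRO-seq was analysed in 12 libraries grouped by their labels. The authors' steps were adapter trimming (Trim Galore), alignment to hg38 (Bowtie2) and sense-strand counting per gene (featureCounts 2.0.3). The deposited tables under the MYC and MYC&MED30 labels (8 libraries) are raw counts. The deposited MED30 tables (4 libraries) are a score, since their whole-number values share nearly the same total, by a scaling not given in the sources used here, and hence show no depth. The members and lists were chosen with earlier results of these data known.

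Raw counts entered edgeR 4.0.16 under R 4.3.3 (quasi-likelihood test, TMM scaling, filterByExpr), all 8 libraries in one fit. MED30 values entered limma 3.58.1 (trend) as log2 of the TMM-scaled value plus a pseudocount of 1, over rows reaching 10 in 2 or more libraries. Adjustment was Benjamini-Hochberg over all rows tested, and the kinds of table were tested apart. Spans came from RefSeq (GRCh38.p14) and GENCODE, whose gene models can differ from those counted. The host was the longest same-strand GENCODE gene holding the whole member with a row in both kinds of table. Named genes were called members, the 8 highest per kb in each kind of table, the extremes of the ratio between tables, textbook members, hosts and the listed proteins, and others were chosen after their values were seen. Scripts were tested on simulated data. Alternatives were other scalings, filters and pseudocounts, DESeq2 1.42.0, a replicate block and leaving out each library.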

Additional observations from a re-analysis of the deposited data

How the results depend on the processing

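The counts of members depended on the threshold. With at least 1 in at least 2 libraries, 10 members had signal in the raw tables and 162 in the MED30 tables, and with at least 100 there were 2 and 9. Leaving out each library in turn left 5 in the raw tables and 81 to 85 in the MED30 tables. With exon length for the host the median ratio was 1.0845. In the libraries labelled MYC, no member was called with DESeq2 (13% of all rows called) or with at least 50 counts in at least 2 libraries (19%). The same held with edgeR on the 4 libraries of the line (11%). The call of SCARNA2 in the main fit also depended on single libraries. The SCARNA2 change ran from -0.00151 without MYC overexpression 2, a reversed sign, to 0.862 without MYC overexpression 1. The median member change there was 0.48 by library size alone and -0.060 to 0.41 with a library left out. In MYC&MED30 that median ran from -0.29 to 0.33, the latter when MYC&MED30 control 1 was left out, so that the shallow library was the lone control, assumed to vary like the other groups.

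In the MED30 tables, 1 member was called with a value of at least 20 (17.2% of all rows called), with edgeR on the values taken as counts (14.6%), and with rows of a mean of at least 50 (18.1%, a choice made after seeing the data), and 0 without a filter (1.76%). With a library left out, 0 to 27 were called. For the difference between lines, 1 was called with no filter on low counts (1.39% of all rows called). The median of this difference was -0.82 by library size alone and -0.79 to -0.10 with a library left out. The replicate numbers gave no sign of pairing, as control and overexpression log ratios correlated at -0.238, -0.0435 and -0.225 in MYC, MYC&MED30 and MED30. The MYC&MED30 value takes in the shallow control, so it cannot decide this. Whether the libraries were paired is not given in the sources used here. With the replicate number as a block, 7 of 87 members were called in the MED30 tables (17.1% of all rows), 1 of 5 in MYC (9.38%), 0 in MYC&MED30 (4.81%) and 0 in the difference (0.72%). With the numbers crossed, a pairing added after seeing the data, 11 were called in the MED30 tables (27.1% of all rows) and 1 in MYC (14%). Where not given as tested, the cause was not tested. The 2 libraries per group limit every test, and low values limit most members.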
